A study of Drosophila mauritiana and Drosophila melanogaster and Drosophila simulans with 12 samples.

Results

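The 1987 gene models described here were placed on the X chromosome of *D. mauritiana* by the reciprocal re-annotation of its published genome and had counts in both species comparisons, out of 13311 models counted in both. They were set against 8466 models on the autosomal arms 2L (2481), 3L (2658) and 3R (3327). Of 2012 models on X, 25 well-known genes of development, pigmentation, signalling and muscle were left out by name. The models span positions 2645 to 20514793 of X in the published *D. mauritiana* genome and hold coding sequence only. Of the 1987 models, 1943 lie on X in the current *D. melanogaster* genome (BDGP6) as well, 43 are not part of that annotation, and 1, *RpS15Ab*, lies on 2R there. *RpS15Ab* shares nearly all of its sequence with the X-linked *RpS15Aa*, so its reads and its place are uncertain.

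RNA was sequenced from eye-antennal imaginal discs, the larval tissue that forms the eye, the antenna and the head capsule, of female late L3 larvae at 120 h after egg laying. The groups were *D. melanogaster* OreR (replicates A to C) against *D. mauritiana* TAM16 (replicates A to C), both with 50 bp single-end reads, and *D. simulans* YVF (replicates A to C) against *D. mauritiana* TAM16 (replicates D to F), both with 100 bp paired-end reads. YVF carries the X-linked mutations yellow, vermillion and forked, and each species is represented by 1 strain, so strain and species cannot be told apart. Each library is a separate biological replicate made from many pooled discs, and a lower value can mean fewer cells that express a gene or less RNA per cell, which cannot be told apart in such samples.

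In *Drosophila*, males carry a single X chromosome and raise its transcription through the dosage compensation complex, while females carry a pair and use no such complex. Genes on X are exposed to selection in males without a second copy, and the X chromosome holds many genes that contribute to hybrid incompatibility between these species. In the eye-antennal disc, X-linked genes include receptors, kinases and adhesion molecules of patterning, structural genes of photoreceptors, and many genes of general cell function.

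The reciprocal tables held 17170747 to 34063962 counts per single-end library and 121468882 to 162437570 counts per paired-end library. Paired-end counts are of 50 bp pieces, and 1 fragment can give several, so these totals overstate the gain in counting precision. X-linked members held 12.7 to 14.0 % of the counts in *D. melanogaster*, against 13.0 to 14.4 % in *D. mauritiana* A to C, and 14.7 to 14.9 % in *D. simulans*, against 15.0 to 15.1 % in *D. mauritiana* D to F. The 7 disc markers (*eya*, *ato*, *dac*, *gl*, *hh*, *sens* and *hth*) were present in all groups, with summed levels of 1003 to 1037 CPM (counts scaled to a library of 1000000 with TMM factors) in *D. melanogaster*, against 883 to 1060 CPM in *D. mauritiana* A to C, and 971 to 1025 CPM in *D. simulans*, against 918 to 1097 CPM in *D. mauritiana* D to F. Markers of other tissues were also present. The 4 muscle markers (*Mhc*, *Tm2*, *Mlc1* and *Mlc2*) summed to 1249 to 1547 CPM in *D. simulans*, against 438 to 697 CPM in *D. mauritiana* D to F, and all 4 passed the test there. In the single-end libraries they summed to 159 to 487 CPM in *D. melanogaster*, against 22.4 to 268 CPM in *D. mauritiana*, and none passed. The 4 fat body markers ranged over 122 to 4106 CPM in *D. melanogaster*, against 492 to 1893 CPM in *D. mauritiana* A to C, and over 12.3 to 121 CPM in *D. simulans*, against 29.1 to 38.1 CPM in *D. mauritiana* D to F. The 4 hemocyte markers ranged over 236 to 1493 CPM in *D. melanogaster*, against 321 to 507 CPM in *D. mauritiana* A to C, and over 447 to 946 CPM in *D. simulans*, against 410 to 692 CPM in *D. mauritiana* D to F. Salivary gland markers ranged over 194 to 238 CPM (3 markers) in *D. melanogaster*, against 43.9 to 294 CPM in *D. mauritiana* A to C, and over 2.76 to 62.4 CPM (2 markers) in *D. simulans*, against 3.36 to 12.7 CPM in *D. mauritiana* D to F. The 2 glial markers summed to 43.8 to 47.2 CPM in *D. melanogaster*, against 37.6 to 39.9 CPM in *D. mauritiana* A to C, with 1 of them called, and to 45.7 to 57.1 CPM in *D. simulans*, against 42.1 to 51.8 CPM in *D. mauritiana* D to F. The part of such tissues in the differences below was not tested.

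The first comparison asks how many X-linked genes differ between *D. melanogaster* and *D. mauritiana*. Of the 1987 X-linked genes, 1567 had enough counts to be tested, and 327 of them (20.9 %, Wilson 95 % interval 18.9 to 22.9 % for counting over genes) were called differentially expressed, that is, with an adjusted p-value below 0.05 in edgeR's quasi-likelihood test. Over all 9767 genes tested the share was 18.2 %, and on 2L, 3L and 3R it was 18.2, 18.9 and 17.1 %. Of the X-linked calls, 118 were higher in *D. melanogaster* and 209 were higher in *D. mauritiana* (7.53 and 13.3 % of the X-linked genes tested), beside 8.06 % and 10.1 % of all genes tested. Genes higher in *D. mauritiana* thus made up 63.9 % of the X-linked calls, against 51.6, 57.4 and 54.9 % of the calls on 2L, 3L and 3R. Calls with more than a 2-fold difference numbered 244 on X (15.6 % of those tested), beside 13.2 % of all genes. Without *D. melanogaster* C, *D. melanogaster* A or *D. mauritiana* B the X-linked calls numbered 162, 186 and 194. Calls on the autosomal arms fell as well there, from 1101 to 530, 616 and 657. In each of the 6 fits that left out 1 library, 150 of the 327 genes (45.9 %) passed, beside 42.9 % of autosomal calls.

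**Figure D1:**
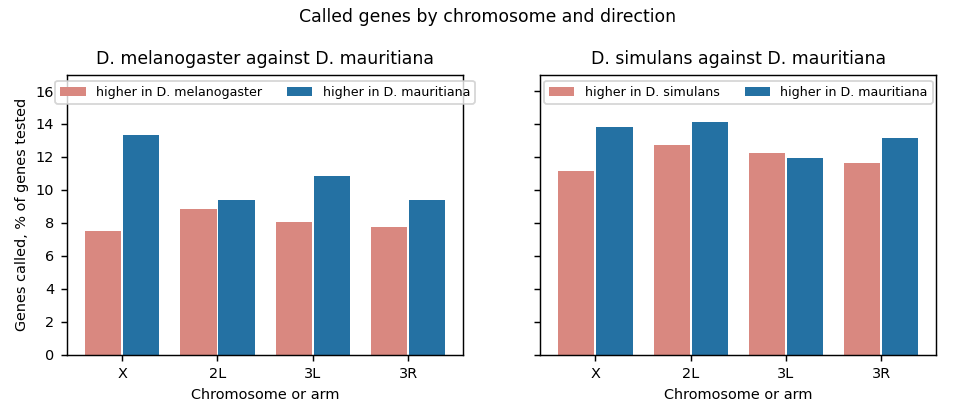
Genes called (adjusted p below 0.05 in edgeR) as a percentage of the genes tested on X, 2L, 3L and 3R, with a bar for each direction, in *D. melanogaster* against *D. mauritiana* (left) and *D. simulans* against *D. mauritiana* (right). In the left panel 13.3 % of the X-linked genes were called higher in *D. mauritiana*, above the 9.39 to 10.9 % of the autosomal arms, and 7.53 % were called higher in *D. melanogaster*, below their 7.72 to 8.82 %.

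In *D. simulans* against *D. mauritiana*, X-linked genes were called at a share close to that of autosomal genes, and calls of more than 2-fold made up a smaller part of them. Of 1777 X-linked genes tested, 443 (24.9 %, Wilson 95 % interval 23.0 to 27.0 %) were called, beside 25.1 % of all 11121 genes tested and 26.8, 24.2 and 24.8 % on 2L, 3L and 3R. Of these, 198 were higher in *D. simulans* and 245 were higher in *D. mauritiana* (11.1 and 13.8 % of the X-linked genes tested), beside 12.1 % and 13.0 % of all genes. The share of calls higher in *D. mauritiana* was 55.3 % on X and 52.5, 49.4 and 53.1 % on 2L, 3L and 3R. Calls with more than a 2-fold difference numbered 168 on X (9.45 %), beside 11.6 % of all genes. Among called genes the median absolute log2-fold change was 0.73 on X, against 0.97 on the autosomal arms. In the first comparison these medians were 1.70 on X and 1.78 on the autosomal arms. Neither these medians nor the shares above 2-fold were matched for counts. Called genes had a median of 24.0 CPM on X and 13.2 CPM on the autosomal arms in the second comparison, and of 12.2 and 10.2 CPM in the first. Leaving out *D. mauritiana* D or *D. simulans* C gave 254 and 269 X-linked calls. Calls on the autosomal arms fell as well there, from 1756 to 1045 and 1099. In each of the 6 fits that left out 1 library, 231 of the 443 genes (52.1 %) passed, beside 53.5 % of autosomal calls.

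A share of called genes depends on how many counts the genes have, so X-linked and autosomal genes were put in 10 strata of equal size by mean CPM. Weighted to the strata of the X-linked genes, the autosomal share called was 17.9 % in the first comparison, which is 2.93 percentage points below the X-linked share, and 24.8 % in the second, which is 0.167 points below. The same calculation for each autosomal arm against the other autosomal arms gave differences of 0.0617, 1.30 and -1.34 points for 2L, 3L and 3R in the first comparison and of 2.47, -1.46 and -0.675 points in the second. The X-linked difference of the first comparison was thus larger than that of any autosomal arm there but close to the 2.47 points of 2L in the second. It remained positive in all 17 alternatives, at 1.40 to 3.83 points, while that of the second comparison was positive in 8 and negative in 8 of 16. Genes are not replicates, and no test over genes was made.

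The difference between X and autosomes was not even over the strata. In *D. melanogaster* against *D. mauritiana*, 50 of 134 X-linked genes (37.3 %) were called in the stratum of lowest counts, against 25.5 % of autosomal genes, and 28 of 170 (16.5 %) in the eighth stratum, against 9.37 %. In the stratum of highest counts the shares were 7.69 % on X and 6.42 % on the autosomes. In *D. simulans* against *D. mauritiana* the lowest strata showed the opposite order, with 15.1 % of X-linked genes and 20.6 % of autosomal genes in the first and 23.6 % of X-linked genes and 32.0 % of autosomal genes in the second. In the sixth stratum the order was turned, with 34.2 % of X-linked genes and 25.2 % of autosomal genes.

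**Figure D2:**
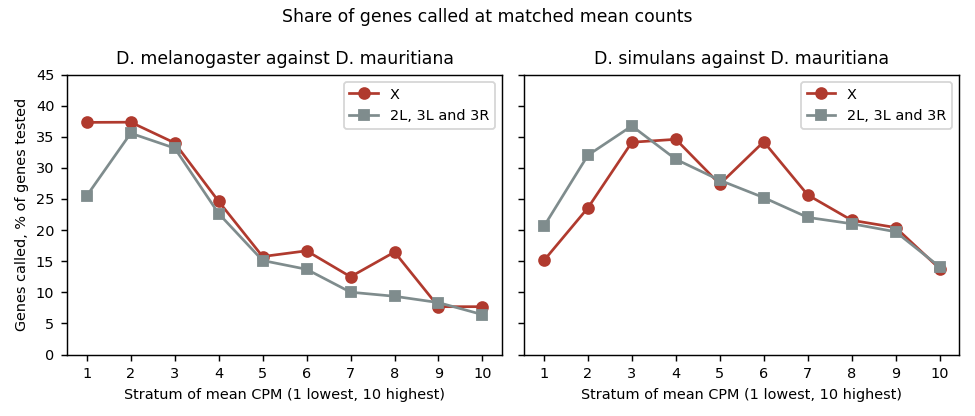
Share of tested genes called (vertical axis, %) in 10 strata of mean CPM (horizontal axis, lowest to highest) for X-linked genes (circles) and genes on 2L, 3L and 3R (squares) in both comparisons. In *D. melanogaster* against *D. mauritiana* the X-linked share lay above the autosomal one in 9 of 10 strata, by most in the first (37.3 against 25.5 %), and in *D. simulans* against *D. mauritiana* the 2 lines crossed, with X below in the first 3 strata.

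The size of the differences on X, read without a threshold, was close to that on the autosomes. The median absolute log2-fold change over all tested X-linked genes was 0.336 in *D. melanogaster* against *D. mauritiana*, beside 0.325 on the autosomal arms, and 0.224 in *D. simulans* against *D. mauritiana*, beside 0.249. At matched counts the medians were 0.475 on X and 0.467 on the autosomes in the first comparison, and 0.350 on X and 0.373 on the autosomes in the second, so that X was lower by 0.0231 there. The median signed log2-fold change was -0.03 on X and 0.02 on the autosomes in the first comparison and -0.01 on X and 0.01 on the autosomes in the second. Each of these shifts between chromosomes (-0.0454 and -0.0160) was smaller than the SD of the corresponding value between libraries of a species (0.0735 and 0.0302). Leaving out 1 library gave shifts of -0.1 (without *D. mauritiana* A) to -0.0183 (without *D. melanogaster* B) in the first comparison and of -0.0340 (without *D. simulans* B) to -0.00698 (without *D. simulans* A) in the second, so the lowest value of each lay beyond that SD. The spread between replicates was also close on both, taken as the SD of log2(CPM + 0.5) with its stratum medians averaged in the same way. It was 0.218 on X and 0.229 on autosomes in *D. melanogaster*, and 0.270 on X and 0.263 on autosomes in *D. mauritiana* A to C. In *D. simulans* it was 0.126 on X and 0.130 on autosomes, and in *D. mauritiana* D to F 0.118 on X and 0.126 on autosomes.

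Per length, X-linked genes were expressed at about the level of autosomal genes. The median RPKM (CPM per kilobase of coding sequence) of tested X-linked genes was 19.9 to 22.3 in *D. melanogaster*, against 20.2 to 23.6 in *D. mauritiana* A to C. These values were 0.891 to 0.952 times the autosomal median in *D. melanogaster* and 0.905 to 0.994 times in *D. mauritiana* A to C, ranges that overlap. In the paired-end libraries the ratio was 1.09 to 1.15 in *D. simulans* and 1.13 to 1.15 in *D. mauritiana* D to F. A larger part of the X-linked models than of the autosomal ones had enough counts to be tested, with 78.9 % against 72.3 % in the first comparison and 89.4 % against 82.4 % in the second, so the medians cover different parts of each chromosome.

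The comparisons share the strain of *D. mauritiana* but no library. Of 1563 X-linked genes tested in both, 148 were called in both, 176 in *D. melanogaster* against *D. mauritiana* alone and 255 in *D. simulans* against *D. mauritiana* alone. In the same direction were 118 of the 148, or 7.55 % of the X-linked genes tested in both, beside 6.33 % of all 9675 genes tested in both and 6.25 % on the autosomal arms. These 118 genes were 36.4 % of the X-linked calls against *D. melanogaster* that could be tested in both, and 29.3 % of those against *D. simulans*. *D. mauritiana* was the higher species in 83 of the 118 (70.3 %), against 64.6 % of the corresponding autosomal genes.

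**Figure D3:**
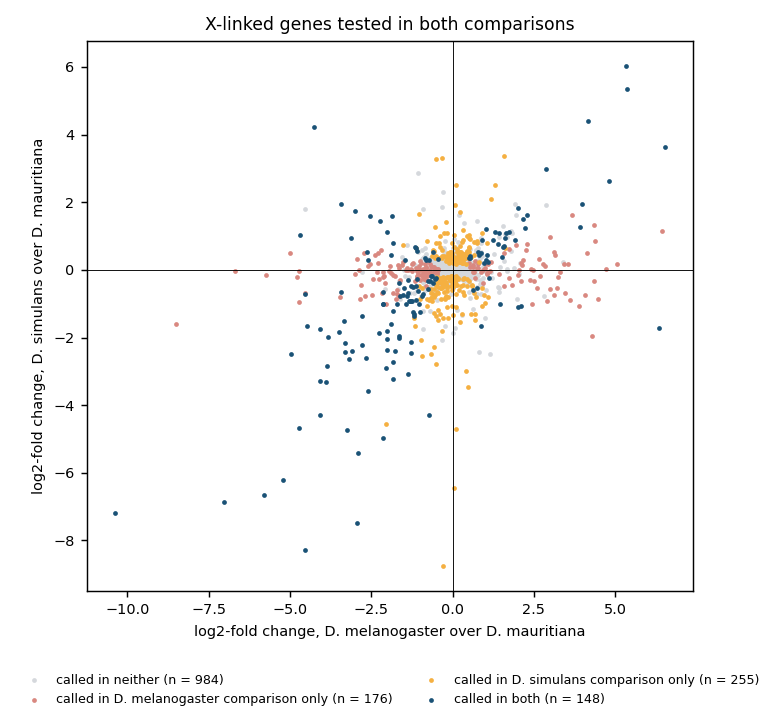
Log2-fold changes of the 1563 X-linked genes tested in both comparisons, *D. melanogaster* over *D. mauritiana* (horizontal) and *D. simulans* over *D. mauritiana* (vertical), one point per gene, coloured by the comparison in which it was called. Of the 148 genes called in both, 83 lie at lower left, with *D. mauritiana* higher than both other species, 35 at upper right and 30 in the other quadrants.

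The X-linked genes named next had the largest differences in the same direction in both comparisons among those whose groups of libraries did not overlap. That the groups are apart was a condition for naming these genes and is not a result. *CG8565* (FBgn0030697, X:14558669-14559704, 2 coding exons) had 0.172, 0 and 0.0393 CPM in *D. melanogaster* A, B and C, against 146, 125 and 85.3 CPM in *D. mauritiana* A, B and C. It had 0.180, 0.545 and 0.371 CPM in *D. simulans*, against 52.4, 50.9 and 58.1 CPM in *D. mauritiana* D, E and F. Few or no reads thus fell on this gene model in both other species, while all 6 *D. mauritiana* libraries were high. The *D. melanogaster* libraries held only 6 counts in all, so the fitted log2-fold change of -10.38 depends on the prior count, and the ratio of summed counts was 1364 in favour of *D. mauritiana* (exact 95 % interval 626 to 3717 for counting error only). Against *D. simulans* the log2-fold change was -7.18 ± 0.35 (SE), with an adjusted p of 3.6e-05. The size of both differences depended on the gene model: on the direct re-annotation the log2-fold changes were -6.08 against *D. melanogaster* and -5.86 against *D. simulans*, and on the published annotation the first was -5.64, all still called.

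*Ir7f* (FBgn0259188, X:7198563-7200527, 3 coding exons) encodes a member of the ionotropic receptor family, chemosensory proteins related to glutamate receptors. Its level was 0.0688, 0.430 and 0.0393 CPM in *D. melanogaster*, against 17.6, 20.2 and 22.9 CPM in *D. mauritiana* A to C, and 0.0656, 0.370 and 0.346 CPM in *D. simulans*, against 26.7, 33.6 and 33.1 CPM in *D. mauritiana* D to F. The log2-fold changes were -7.03 ± 0.63 (SE, adjusted p = 0.000691) and -6.87 ± 0.53 (adjusted p = 0.000242), and the first was -8.40 without *D. melanogaster* B. Its neighbour *Ir7g* (FBgn0029968, X:7201212-7203512, 4 coding exons), of the same family, was likewise higher in *D. mauritiana*. *Ir7g* had 0.413, 0.369 and 0.315 CPM in *D. melanogaster*, against 1.29, 2.33 and 4.83 CPM in *D. mauritiana* A to C, and 0.123, 0.135 and 0.0866 CPM in *D. simulans*, against 17.4, 26.2 and 18.4 CPM in *D. mauritiana* D to F. All groups were apart, which the naming rule required against *D. simulans* only. The difference from *D. melanogaster* (log2-fold change -2.94 ± 0.57, adjusted p = 0.0127) did not pass without *D. melanogaster* C (adjusted p = 0.0642) and was -2.31 without *D. mauritiana* C. That from *D. simulans* was -7.49 ± 0.28 (adjusted p = 1.31e-05).

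*CG15892* (FBgn0029859, X:5697374-5698328) and *CG17777* (FBgn0040900, X:1892567-1892865) followed the same order. *CG15892* had 1.65, 3.32 and 1.49 CPM in *D. melanogaster*, against 79.1, 86.7 and 67.8 CPM in *D. mauritiana* A to C (log2-fold change -5.21 ± 0.33), and 1.03, 0.632 and 0.711 CPM in *D. simulans*, against 59, 52.9 and 63.1 CPM in *D. mauritiana* D to F (-6.21 ± 0.21). *CG17777* had 0.791, 1.17 and 0.826 CPM in *D. melanogaster*, against 19, 13 and 9.17 CPM in *D. mauritiana* A to C (-3.90 ± 0.37), and 0.582, 0.525 and 0.693 CPM in *D. simulans*, against 4.91, 5.92 and 7.26 CPM in *D. mauritiana* D to F (-3.33 ± 0.24). By the naming rule, every *D. mauritiana* library lay above every library of the other species in its comparison. Adjusted p-values in edgeR were 0.000171 and 8.54e-06 for *CG15892* and 0.000835 and 0.000172 for *CG17777*.

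Lower expression in *D. mauritiana* than in both other species was seen for *Pdfr* and *CG33253*. *Pdfr* (FBgn0260753, X:2250241-2254034, 9 coding exons), the receptor of the circadian neuropeptide PDF, had 10.7, 14.6 and 8.65 CPM in *D. melanogaster*, against 0.123, 0.118 and 0.112 CPM in *D. mauritiana* A to C, and 1.74, 2.19 and 1.88 CPM in *D. simulans*, against 0.121, 0.290 and 0.0571 CPM in *D. mauritiana* D to F. The log2-fold changes were 6.53 ± 0.38 (adjusted p = 0.000101) and 3.63 ± 0.56 (adjusted p = 0.00437). *CG33253* (FBgn0030992, X:17891769-17895162, 4 coding exons) had 12.2, 13.3 and 12.0 CPM in *D. melanogaster*, against 0.493, 0.294 and 0.150 CPM in *D. mauritiana* A to C, and 15.4, 14.9 and 14.0 CPM in *D. simulans*, against 0.418, 0.269 and 0.406 CPM in *D. mauritiana* D to F. Here the differences were of nearly the same size, with log2-fold changes of 5.37 ± 0.41 (adjusted p = 0.000382) and 5.34 ± 0.22 (adjusted p = 1.89e-05), and with 4.41 and 4.42 on the published annotation. The second value of *Pdfr* was 4.45 without *D. mauritiana* E.

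**Figure D4:**
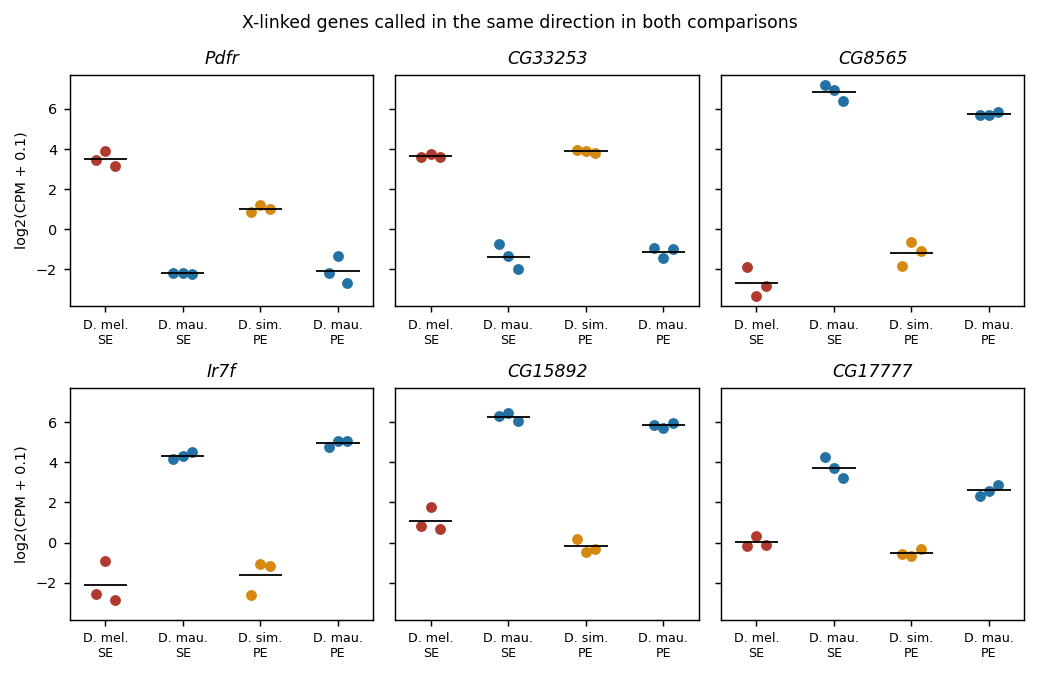
Expression as log2(CPM + 0.1) of the 6 named X-linked genes called in the same direction in both comparisons, 1 point per library with the mean of the log2 values as a line, in single-end (SE) libraries of *D. melanogaster* (D. mel.) and *D. mauritiana* (D. mau.) and paired-end (PE) libraries of *D. simulans* (D. sim.) and *D. mauritiana*. By the rule that named these genes, no library of 1 species overlaps the other species of its comparison. *D. mauritiana* is the lower species in *Pdfr* and *CG33253* and the higher in *CG8565*, *Ir7f*, *CG15892* and *CG17777*.

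Other X-linked genes with large differences between *D. melanogaster* and *D. mauritiana* did not pass the test in *D. simulans* against *D. mauritiana*. *FucTC* (FBgn0044872, X:20507140-20508613), which encodes an alpha-1,3-fucosyltransferase, had 0.860, 2.21 and 1.06 CPM in *D. melanogaster*, against 77.6, 76.7 and 58.0 CPM in *D. mauritiana* A to C (log2-fold change -5.74 ± 0.37, adjusted p = 0.000179). In the second comparison it had 43.0, 39.2 and 41.8 CPM in *D. simulans*, against 46.7, 45.7 and 44.5 CPM in *D. mauritiana* D to F (log2-fold change -0.14 ± 0.06, adjusted p = 0.139). *D. melanogaster* was thus the species apart. *CG14195* (FBgn0030998, X:17915860-17918298) had 0.241, 0.123 and 0.236 CPM in *D. melanogaster*, against 28.3, 26.8 and 11.7 CPM in *D. mauritiana* A to C (-6.70 ± 0.50, adjusted p = 0.000353), and 7.76, 5.12 and 7.24 CPM in *D. simulans*, against 6.48, 6.36 and 7.56 CPM in *D. mauritiana* D to F (-0.02 ± 0.19, adjusted p = 0.946). The test of the difference between the comparisons was not made.

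*CG43133* (FBgn0262607, X:16877992-16878365, 1 coding exon) varied between replicates more than the genes above. It had 0.138, 0.246 and 0 CPM in *D. melanogaster*, against 19.1, 15.8 and 95.8 CPM in *D. mauritiana* A to C (8 counts against 3406 in all, ratio of summed counts 392 in favour of *D. mauritiana* with an exact 95 % interval of 199 to 908), and edgeR gave an adjusted p of 0.00308. In *D. simulans* it had 2.40, 0.229 and 0.155 CPM, against 3.09, 2.91 and 2.36 CPM in *D. mauritiana* D to F, with an adjusted p of 0.266 (log2-fold change -1.59), but was called without *D. simulans* A (-3.86, adjusted p = 0.00118). Library C of *D. mauritiana* was the highest in the first comparison and library A of *D. simulans* came near *D. mauritiana* in the second.

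Among genes higher in *D. melanogaster*, *dpr18*, *Rab27*, *CR14798* and *CG2233* stood beside *Pdfr* and *CG33253*. *dpr18* (FBgn0030723, X:14878776-14882375, 7 coding exons) belongs to a family of immunoglobulin domain proteins of neurons and had 13.6, 20.6 and 13.7 CPM in *D. melanogaster*, against 0.0616, 0.177 and 0.262 CPM in *D. mauritiana* A to C (log2-fold change 6.44 ± 0.44, adjusted p = 0.000227). In *D. simulans* it had 0.303, 0.464 and 0.254 CPM, against 0.161, 0.214 and 0.0824 CPM in *D. mauritiana* D to F (1.16 ± 0.48, adjusted p = 0.127). *Rab27* (FBgn0025382, X:1232008-1234246), a small GTPase of vesicle transport, had 7.94, 18.5 and 13.2 CPM in *D. melanogaster*, against 0.246, 0.971 and 0.449 CPM in *D. mauritiana* A to C (4.48 ± 0.55, adjusted p = 0.00222; 5.15 without *D. mauritiana* B). Both genes had less than 0.5 CPM in all paired-end libraries, and the largest value of *Rab27* there was 0.469 CPM.

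*CR14798* (FBgn0029588, X:1435454-1435767) had 23.7, 45.8 and 18.1 CPM in *D. melanogaster*, against 2.53, 1.44 and 1.16 CPM in *D. mauritiana* A to C (log2-fold change 4.12 ± 0.47, adjusted p = 0.00157), and did not pass in *D. simulans* against *D. mauritiana* (0.50 ± 0.28, adjusted p = 0.229). *CG2233* (FBgn0029990, X:7345041-7346673) had 144, 6.82 and 108 CPM in *D. melanogaster*, against 1.36, 0.912 and 1.01 CPM in *D. mauritiana* A to C (6.33 ± 1.09, adjusted p = 0.00802). The log2-fold change was 5.75 without *D. melanogaster* A, 5.58 with a replicate block and 3.49 with DESeq2 and its prior. Library B of *D. melanogaster* was far below the other libraries of its species but still above *D. mauritiana*, which the naming rule required. Library B was also the *D. melanogaster* library with the fewest counts, for which CPM values are scaled, and the cause of its low value was not tested. In *D. simulans*, *CG2233* had 0.279, 0.141 and 0.192 CPM, against 0.659, 0.801 and 0.533 CPM in *D. mauritiana* D to F (-1.71 ± 0.38, adjusted p = 0.0171), so that *D. mauritiana* was the higher species there, a call lost without *D. mauritiana* D or E or *D. simulans* B or C (adjusted p of 0.0594, 0.0543, 0.0512 and 0.0697).

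In *D. simulans* against *D. mauritiana*, the largest differences besides those above were in genes with few counts in 1 species. *CG15446* (FBgn0031155, X:19612859-19613852) had 264, 397 and 409 counts in *D. simulans* (2.17, 2.67 and 2.53 CPM), against 4, 1 and 0 counts in *D. mauritiana* D to F. The ratio of summed counts was 211 (exact 95 % interval 90.3 to 652 for counting error only), with an adjusted p of 0.000529, and in the single-end libraries the gene had 2 counts in all. *CG15368* (FBgn0030104, X:8478052-8478540) had 1, 3 and 2 counts in *D. simulans*, against 177, 192 and 266 counts in *D. mauritiana* D to F, a ratio of 107 in favour of *D. mauritiana* (interval 49 to 293), with an adjusted p of 8.73e-05. It had 1, 0 and 1 counts in *D. melanogaster*, against 29, 64 and 47 counts in *D. mauritiana* A to C, and was called there too (adjusted p = 0.0011). *CG15368* thus had at most 3 counts in any library of the other species. The intervals of *CG15446* and *CG15368* take each count as independent. Since 1 paired-end fragment can give several counts, they can be too narrow.

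*CG15040*, *CG34334* and *CG32633*, each with 1 coding exon, were higher in *D. simulans*. *CG15040* (FBgn0030940, X:17343666-17345349) had 10.6, 11.9 and 12.3 CPM in *D. simulans*, against 0.225, 0.179 and 0.127 CPM in *D. mauritiana* D to F (log2-fold change 6.03 ± 0.26, adjusted p = 2.11e-05). It was also higher in *D. melanogaster*, with 6.33, 8.66 and 2.36 CPM, against 0, 0.147 and 0.225 CPM in *D. mauritiana* A to C (5.35 ± 0.81, adjusted p = 0.00493), a call that did not pass on the direct re-annotation (log2-fold change 1.56, adjusted p = 0.0788). Against *D. simulans* the log2-fold change there was 1.83, still called, so the size of both differences depended on the gene model. *CG34334* had 1.39, 1.78 and 1.5 CPM in *D. simulans*, against 0.0965, 0.0552 and 0 CPM in *D. mauritiana* D to F (4.97 ± 0.85, adjusted p = 0.00624; 4.35 without *D. mauritiana* F and 5.82 without D), and *CG32633* had 8.14, 6.15 and 6.38 CPM in *D. simulans*, against 0.209, 0.483 and 0.178 CPM in *D. mauritiana* D to F (4.57 ± 0.43, adjusted p = 0.000545; 5.15 without *D. mauritiana* E). Neither had enough counts to be tested in the single-end libraries. *Muc11A* (FBgn0052656, X:11136729-11139080), named as a mucin, had 0.0574, 0.0605 and 0.198 CPM in *D. simulans*, against 10.5, 4.83 and 13.1 CPM in *D. mauritiana* D to F (-6.45 ± 0.64, adjusted p = 0.000687; -7.30 without *D. simulans* C). In the single-end libraries it had 0.413, 0.553 and 0.236 CPM in *D. melanogaster*, against 0.370, 0.530 and 0.225 CPM in *D. mauritiana* A to C, groups that overlap, with models that differ by 108 bp there.

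The remaining 30 X-linked genes called in both comparisons had opposite directions. In 22 of them *D. melanogaster* was lower and *D. simulans* higher than *D. mauritiana*, and in 8 it was the reverse. *Yp3* (FBgn0004047, X:12763892-12765320), which encodes a yolk protein known from adult fat body and ovary, was one of the 22. It had 0.481, 0.184 and 0.315 CPM in *D. melanogaster*, against 7.21, 6.95 and 5.50 CPM in *D. mauritiana* A to C (log2-fold change -4.25 ± 0.41, adjusted p = 0.000864), and 64.0, 45.5 and 69.3 CPM in *D. simulans*, against 2.15, 2.85 and 4.46 CPM in *D. mauritiana* D to F (4.24 ± 0.31, adjusted p = 0.000183). The groups did not overlap in either comparison, which the naming rule required in the second only. The fat body markers overlapped between the species in both comparisons, and the part of fat body in the differences of *Yp3* was not tested. *Yp2*, another yolk protein gene on X, was not called (log2-fold changes of -0.49 and -0.90, adjusted p = 0.737 and 0.127). *Yp1*, also on X, had 27 counts in all in *D. melanogaster*, against 8 in *D. mauritiana* A to C, too few to be tested. It was not called in the second comparison (-0.95, adjusted p = 0.365).

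Over all lists of X-linked genes of known role together, 3 of 104 tested genes were higher in *D. melanogaster*, 8 were higher in *D. mauritiana* and 93 were not called, where 18.2 % of all genes tested were called. In the second comparison 7 of 108 were higher in *D. simulans*, 6 were higher in *D. mauritiana* and 95 were not called, where 25.1 % of all genes tested were called. The median absolute log2-fold change of these genes was 0.225 in the first comparison, beside 0.325 over all genes tested, and 0.123 in the second, beside 0.247. Listed genes were chosen as well studied, the difference in counts from other genes was not taken into account, and no test of a list was made.

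**Figure D5:**
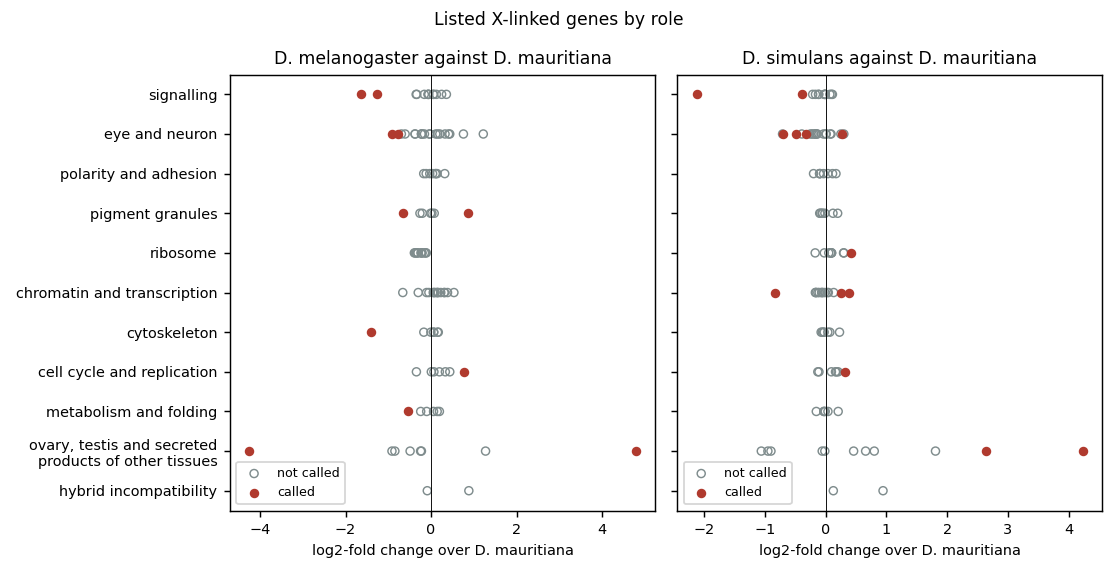
Log2-fold changes of the listed X-linked genes by role, 1 point per gene, for *D. melanogaster* over *D. mauritiana* (left) and *D. simulans* over *D. mauritiana* (right); filled points were called (adjusted p below 0.05 in edgeR). No point is filled in polarity and adhesion, and the 2 outermost on the left are *Yp3* (-4.25) and *TrxT* (4.79).

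Among 13 signalling genes, 2 were higher in *D. mauritiana* in each comparison and the other 11 were not called, beside 18.2 and 25.1 % of all genes called in the first and second comparison. *Pvf1*, the ligand of a receptor tyrosine kinase related to the PDGF and VEGF receptors, had 9.97, 10.1 and 12.1 CPM in *D. melanogaster*, against 26.1, 28.8 and 22.8 CPM in *D. mauritiana* A to C (log2-fold change -1.27 ± 0.18, adjusted p = 0.00356). It had 6.76, 4.90 and 6.10 CPM in *D. simulans*, against 27.0, 25.8 and 24.7 CPM in *D. mauritiana* D to F (-2.13 ± 0.14, adjusted p = 0.000128). The ligand was thus more than 2-fold higher in *D. mauritiana* than in either other species, at nearly the same level in both sets of *D. mauritiana* libraries. Such likeness did not hold for every named gene. In *D. mauritiana* A to C and D to F, *Muc11A* averaged 0.375 and 9.46 CPM and *Ir7g* 2.8 and 20.6 CPM. *CG43133* averaged 43.5 and 2.8 CPM and *CG14195* 22.3 and 6.80 CPM. The cause of these differences within 1 strain was not tested. *Mnt*, a repressor that competes with Myc for their shared partner Max, had 37.8, 32.4 and 35.1 CPM in *D. melanogaster*, against 103, 94.5 and 132 CPM in *D. mauritiana* A to C (-1.64 ± 0.16, adjusted p = 0.000998), and 116, 127 and 134 CPM in *D. simulans*, against 156, 164 and 175 CPM in *D. mauritiana* D to F (-0.39 ± 0.08, adjusted p = 0.0103). Its models differ by 50 bp in length in the first comparison. The kinases *sgg* of Wnt signalling (0.25 and 0.11) and *Raf* of the MAPK cascade (-0.16 and -0.01) had small log2-fold changes in the first and second comparison, and the medians of the list were -0.06 and -0.02.

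Of 20 genes of the eye and of neurons tested, 2 were lower in *D. melanogaster* than in *D. mauritiana*, and 3 were lower and 1 was higher in *D. simulans* than in *D. mauritiana*, where 18.2 and 25.1 % of all genes tested were called. *comt*, which encodes the NSF ATPase of vesicle fusion, was called in both. It had 21.5, 16.9 and 21.6 CPM in *D. melanogaster*, against 34.8, 33.9 and 45.2 CPM in *D. mauritiana* A to C (log2-fold change -0.92 ± 0.18, adjusted p = 0.0142), and 30.0, 27.6 and 31.2 CPM in *D. simulans*, against 49.7, 49 and 46.5 CPM in *D. mauritiana* D to F (-0.71 ± 0.07, adjusted p = 0.000664). The groups were apart in both comparisons, although the first call was lost without *D. melanogaster* C (adjusted p = 0.0538). *rg*, a large scaffold protein whose mutants have rough eyes, averaged 71.4 ± 5.73 CPM in *D. melanogaster* and 123 ± 38.0 CPM in *D. mauritiana* A to C (SD, n = 3 each), near the threshold in edgeR (adjusted p = 0.0486) and past it no longer without *D. mauritiana* B or any *D. melanogaster* library (adjusted p of 0.0706 to 0.154).

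The cell adhesion molecule gene *Fas2* averaged 359 ± 21.5 CPM in *D. simulans* and 502 ± 20.3 CPM in *D. mauritiana* D to F (SD, n = 3 each; adjusted p = 0.00285 in edgeR), and the amyloid precursor homolog *Appl* averaged 282 ± 9.40 CPM in *D. simulans* and 354 ± 5.12 CPM in *D. mauritiana* D to F (adjusted p = 0.00606). Both are genes of axons and neurons. *kirre*, an adhesion molecule of cell recognition in eye and muscle, was higher in *D. simulans* (32.2 ± 1.51 CPM, against 26.7 ± 0.375 CPM in *D. mauritiana* D to F, adjusted p = 0.0262 in edgeR), in libraries that also had the higher muscle markers, and its call was lost without any 1 of 5 libraries (adjusted p of 0.0573 to 0.11, all but *D. simulans* A). Genes of phototransduction were not called: the phospholipase gene *norpA* had log2-fold changes of 0.44 and 0.30 (adjusted p = 0.1 and 0.413) and the diacylglycerol kinase gene *rdgA* of -0.22 and -0.39 (adjusted p = 0.702 and 0.149). *inaF-B* had 1 count in each comparison and was not tested.

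None of the 8 genes of polarity and adhesion was called in either comparison, where 18.2 and 25.1 % of all genes were, and their log2-fold changes lay between -0.17 and 0.32 in the first and between -0.20 and 0.17 in the second. *Moe*, which links actin to the membrane, averaged 588 ± 151 CPM in *D. melanogaster* and 549 ± 139 CPM in *D. mauritiana* A to C, and 853 ± 52.4 CPM in *D. simulans* and 915 ± 20.9 CPM in *D. mauritiana* D to F (SD, n = 3 each). The integrin gene *mys* and the apical polarity gene *baz* likewise differed by less than the spread between replicates in the first comparison. Of 7 cytoskeletal genes, *f* (forked), an actin bundling protein of bristles, was the only one called, and only against *D. melanogaster*. It had 6.91, 7.13 and 6.06 CPM in *D. melanogaster*, against 22.4, 13.4 and 17.4 CPM in *D. mauritiana* A to C (log2-fold change -1.40 ± 0.24, adjusted p = 0.00771). In *D. simulans* YVF, whose forked allele is mutant, it had 14.0, 16.4 and 18.5 CPM, against 15.7, 14.9 and 16 CPM in *D. mauritiana* D to F, groups that overlap (0.07 ± 0.12, adjusted p = 0.717). The other tested marker mutation of that strain, *y*, was expressed at 0.254 to 0.369 CPM in *D. simulans*, against 0.124 to 0.394 CPM in *D. mauritiana* D to F, and had too few counts in the single-end libraries.

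Of 7 genes listed under pigment granules, a list that also holds enzymes such as *mal*, 1 was higher and 1 lower in *D. melanogaster*. None was called in the second comparison (all genes tested: 18.2 and 25.1 % called). *car*, *cm*, *dor* and *g* of this list were called in neither comparison. *mal*, which encodes the molybdenum cofactor sulfurase needed by xanthine dehydrogenase, had 47.9, 37.5 and 46.8 CPM in *D. melanogaster*, against 19, 21.9 and 31.3 CPM in *D. mauritiana* A to C (log2-fold change 0.87 ± 0.22, adjusted p = 0.0319). *pn*, whose mutants have brownish eyes, had 12.9, 14.6 and 12.9 CPM in *D. melanogaster*, against 19.5, 21.1 and 23.6 CPM in *D. mauritiana* A to C (-0.67 ± 0.16, adjusted p = 0.0295). Groups were apart in both genes, but the call of *mal* was lost without *D. mauritiana* A or B or *D. melanogaster* A or C (adjusted p of 0.0976 to 0.129) and that of *pn* without *D. mauritiana* B or C or *D. melanogaster* A or C (0.0551 to 0.14).

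Genes of the ribosome, of metabolism and of the cell cycle are genes of general cell function, to be read beside the 18.2 and 25.1 % of all genes called in the first and second comparison. None of 11 ribosomal protein genes passed between *D. melanogaster* and *D. mauritiana*, where all 11 log2-fold changes were negative (-0.39 to -0.11, median -0.24), and 1, *RpL36*, passed in the second comparison (1592 ± 158 CPM in *D. simulans* and 1197 ± 157 CPM in *D. mauritiana* D to F, SD, n = 3 each, adjusted p = 0.0356 in edgeR), a call lost without *D. mauritiana* D or E or *D. simulans* A or C (0.0779 to 0.108). Of 6 genes of metabolism and folding, only the glucose-6-phosphate dehydrogenase gene *Zw* passed, against *D. melanogaster* and just at the threshold (34.7 ± 4.05 CPM, against 50.7 ± 5.46 CPM in *D. mauritiana* A to C, adjusted p = 0.0482), and it did not pass under 9 of 14 alternatives, among them without *D. mauritiana* A or B or any *D. melanogaster* library (0.0888 to 0.178). Of 7 genes of cell cycle and replication, *Mcm6*, a subunit of the replicative helicase, was higher in *D. melanogaster* (170 ± 34.7 CPM, against 99.8 ± 15.3 CPM in *D. mauritiana* A to C, adjusted p = 0.0361), a call lost without *D. mauritiana* A or B or *D. melanogaster* A or C (0.107 to 0.135). In the second comparison *Cdk7*, the kinase of the general transcription factor TFIIH, was higher in *D. simulans* (64.8 ± 2.17 CPM, against 52.2 ± 0.567 CPM in *D. mauritiana* D to F, adjusted p = 0.00732).

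None of 15 genes of chromatin and transcription passed in the first comparison, where 18.2 % of all genes did, and 3 passed in the second, where 25.1 % did. *ph-d* averaged 109 ± 5.50 CPM in *D. simulans* and 194 ± 10.2 CPM in *D. mauritiana* D to F (SD, n = 3 each; log2-fold change -0.83, adjusted p = 0.0003 in edgeR), while *ph-p* averaged 186 ± 7.72 CPM in *D. simulans* and 155 ± 5.27 CPM in *D. mauritiana* D to F (0.26, adjusted p = 0.0192). Both encode near-identical Polycomb proteins, and in the annotation the model of *ph-d* (FBgn0004860, X:1825629-1840212) runs over that of *ph-p* (FBgn0004861, X:1836826-1840212), so the reads of the genes may have been divided between them and neither value is certain. The call of *ph-d* was lost on the direct re-annotation (log2-fold change -0.16, adjusted p = 0.113) and that of *ph-p* without *D. mauritiana* D or *D. simulans* C (0.0887 and 0.0824). *mof*, the histone acetyltransferase of the dosage compensation complex of males, averaged 47.0 ± 4.26 CPM in *D. simulans* females and 35.9 ± 2.88 CPM in *D. mauritiana* D to F (0.39, adjusted p = 0.0217), a call lost without *D. mauritiana* D or E or *D. simulans* B or C (0.0612 to 0.0751).

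Both listed genes of hybrid incompatibility were measured and neither was called, where 18.2 and 25.1 % of all genes tested were called in the first and second comparison. *Hmr*, which contributes to the death of hybrid males of *D. melanogaster* and *D. simulans*, had 46.4, 64.8 and 48.7 CPM in *D. melanogaster*, against 59.0, 64.7 and 46.3 CPM in *D. mauritiana* A to C (adjusted p = 0.8), and 48.7, 46.9 and 53.5 CPM in *D. simulans*, against 42.4, 43.5 and 50.7 CPM in *D. mauritiana* D to F (adjusted p = 0.348). The groups overlapped in both comparisons. *OdsH*, linked to sterility of hybrid males of *D. mauritiana* and *D. simulans*, averaged less than 1 CPM in every group, with log2-fold changes of 0.88 and 0.94 (adjusted p = 0.423 and 0.0914). Among 13 X-linked genes of ovary, testis and secreted products of other tissues, 8 had enough counts to be tested in the first comparison and 11 in the second. Some of those not tested had unequal counts. *Cp36* had 3 counts in all in *D. melanogaster*, against 70 in *D. mauritiana* A to C, and *swa* had 23 against 2. *Cp38* had 1 count in all in *D. simulans*, against 34 in *D. mauritiana* D to F. Over all genes tested, 18.2 and 25.1 % were called. Besides *Yp3*, only *TrxT*, a thioredoxin of the testis, was called, with 23, 18 and 18 counts in *D. melanogaster*, against 0, 0 and 2 counts in *D. mauritiana* A to C (adjusted p = 0.01), and 26, 30 and 32 counts in *D. simulans*, against 2, 5 and 7 counts in *D. mauritiana* D to F (adjusted p = 0.01). The salivary glue gene *Sgs4* ranged over 0.909 to 46.5 CPM between *D. simulans* libraries and over 1.5 to 7.75 CPM in *D. mauritiana* D to F, which overlap.

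Called X-linked genes were spread over the whole chromosome. In bins of 2 Mb the share called ranged over 13.6 % (29 of 213, 14 to 16 Mb) to 34.6 % (9 of 26, 20 to 22 Mb) in *D. melanogaster* against *D. mauritiana*, and over 18.5 % (45 of 243, 14 to 16 Mb) to 34.5 % (10 of 29, 20 to 22 Mb) in *D. simulans* against *D. mauritiana*. The same bins were thus lowest and highest in both comparisons, which share a strain, and the last bin holds few genes. When an X-linked gene was called, the next tested gene along X was called as well in 22.7 % of cases in the first comparison and 26.4 % in the second, against 23.4 and 28.7 % on the autosomal arms. Of these neighbouring pairs of calls, 49 of 74 (66.2 %) on X had the same direction in the first comparison and 71 of 117 (60.7 %) in the second, against 54.9 and 60.1 % on the autosomal arms.

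Genes known only by a CG or CR number made up 53.2 % of the X-linked calls in the first comparison, against 36.2 % of the X-linked genes tested and not called, and 46.7 % against 41.5 % in the second. On the autosomal arms these shares were 44.7 and 33.0 % in the first comparison and 42.8 and 36.8 % in the second. Called X-linked genes had fewer counts than the others, with a median of 12.2 CPM against 43.7 CPM in the first comparison and 24.0 CPM against 30.1 CPM in the second. The autosomal arms showed the same order, with 10.2 CPM against 42.2 CPM in the first and 13.2 CPM against 26.9 CPM in the second. Coding length on X was similar, with a median of 1332 bp in called genes against 1446 bp in the others in the first comparison and of 1389 bp against 1342 bp in the second.

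Models that the published annotation tables lacked made up a larger share of the X-linked than of the autosomal models, although the autosomal ones were more in number. The published annotation table with *D. melanogaster* lacked 374 of the 1987 X-linked members (18.8 %), against 1106 of the 8466 autosomal models (13.1 %), and that with *D. simulans* lacked 596 of the X-linked members (30.0 %), against 2002 of the autosomal models (23.6 %). Of the X-linked members that the published table lacked, 277 could be tested in the first comparison and 63 (22.7 %) were called, beside 20.5 % of those it held. In the second comparison 142 of 520 (27.3 %) were called, beside 23.9 %. The autosomal models showed the same order, with 22.4 % of those that the published table lacked called, beside 17.4 % of those it held, in the first comparison and 27.6 % beside 24.4 % in the second.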

How the data were processed

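Reads, with paired-end reads cut into 50 bp pieces and none trimmed, were aligned by the authors with Bowtie2 against coding sequences of their own species and summed with SAMtools 0.1.19. The deposited tables hold these counts per gene model without normalization, 1 table for each annotation and comparison, with the length of each model. Low-quality bases were noted in *D. simulans* C and in *D. mauritiana* A, D and E. Near-identical and overlapping genes share reads.

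Members and lists were chosen with earlier results of these data known. X-linked models were taken from the alignment of the reciprocal re-annotation to the published *D. mauritiana* genome. Counts of all genes kept by filterByExpr were tested with the quasi-likelihood test of edgeR 4.0.16 (R 4.3.3) with TMM factors, 3 libraries against 3, with Benjamini-Hochberg adjustment over all genes tested and a threshold of 0.05. A positive log2-fold change means that *D. melanogaster* or *D. simulans* was higher. The SE of a log2-fold change was worked back from the test, as its absolute value divided by the square root of the F statistic. It is thus approximate. The scripts were tested on simulated data with 200 changed genes per comparison. Intervals cover counting error only.

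Named genes were X-linked calls with a symbol, at least 100 counts per library on average, models within 49 bp of each other in length and groups that do not overlap, the 6 most extreme in each direction and comparison and the 6 with the largest smaller change among those called in both in the same direction, besides members of the lists. Alternatives were DESeq2 1.42.0 with its prior, its size factors, TMM factors from 2L, 3L and 3R, other filters, the other annotations, other numbers of strata, a replicate block and leaving out each library. Symbols came from the identifiers through a table of gene names and a supplementary gene table of the study, and 1959 of the 1987 members had one. Of the listed tissues, markers of muscle, fat body, hemocytes, salivary gland, glia and the disc were summed. No columns of per-sample values were set aside.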

Additional observations from a re-analysis of the deposited data

How the results depend on the processing

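In *D. melanogaster* against *D. mauritiana* the autosomal calls numbered 1518 with DESeq2 and 729 with at least 10 counts in every library. They numbered 530 to 1199 when 1 library was left out. The X-linked calls numbered 423, 225 and 162 to 350 under the same settings. The share of these calls higher in *D. mauritiana*, an outcome followed over the alternatives after the data had been seen, was 58.6 to 65.5 % with 1 library left out and 60.5 to 68.4 % in the other alternatives. The autosomal share, 54.8 % in the main fit, moved as well and was below the X-linked one in every alternative. The gap was narrowest without *D. mauritiana* B (65.5 % on X, 61.6 % on autosomes) and with a replicate block (61.3 and 56.5 %). It was widest with at least 10 counts in every library (68.4 and 57.2 %). The X-linked weighted mean of the stratum medians of the absolute log2-fold change minus the autosomal one was 0.00821, and -0.0180 with no filter on low counts. In *D. simulans* against *D. mauritiana* the autosomal calls numbered 2222 with DESeq2 and 1545 on the published annotation. With 1 library left out they numbered 1045 to 1708. The X-linked calls under these settings numbered 556, 358 and 254 to 402. The difference between the weighted means of stratum medians, -0.0231, was -0.0330 on the published annotation, -0.0128 with 5 strata and -0.0146 with 20 strata. It was -0.0405 to -0.0241 with 1 library left out. The cause of these changes was not tested.

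Deviations from the group means correlated at -0.237, 0.202 and 0.155 between libraries with the same letter in the first comparison. Deviations within a group of 3 depend on each other, and different letters were not correlated. These values thus do not decide whether the letters pair the samples. With a replicate block there were 266 X-linked calls instead of 327. No paired analysis was possible for *D. simulans*, whose letters are not shared by *D. mauritiana* D to F. The 1 strain per species, the 3 libraries per group, the coding models without UTRs, the overlap of near-identical genes and the lower depth of the single-end libraries limit what can be read from the X-linked genes. Genes with few counts, such as *CG34334*, could not be tested at the single-end depth. No named log2-fold change reversed its sign in an alternative where it was called. With DESeq2 and its prior, many of the largest named log2-fold changes were smaller though still called. Against *D. melanogaster* that of *CG43133* was -3.31 instead of -8.51. Against *D. simulans* that of *Muc11A* was -3.36 instead of -6.45, and that of *Ir7f* was -3.76 instead of -6.87.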

Other observations

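Some X-linked models fell outside the comparisons. A further 10 models on X were counted in only 1 of the reciprocal tables and were not compared, and 28 members had no symbol.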
